A study of Mus musculus with 2 samples.

Results

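Inhibitory receptors restrain T cells once these have been activated, and several of them are targets of checkpoint antibodies. The 10 genes described here are Pdcd1, Havcr2, Lag3, Tigit, Ctla4, Cd160, Btla, Cd96, Entpd1 and Pvrig. They were chosen by name and not by a cut-off on measured values, though with earlier results of these data known. They are 10 of the 31053 mouse genes in the gene expression library. Each was matched to a single symbol in the library, and none was lost to the filter on rarely detected genes.

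The cells came from B16 melanomas and from B16IL33 melanomas, a line engineered to overexpress the secreted form of IL-33, both transplanted into untreated mice that the study keeps on a C57BL/6 background. The age and sex of the mice are not given in the sources used here. Cell suspensions from the tumors were labelled with hashtag antibodies, 2 tags per tumor type. T cells were then sorted and mixed into 1 pool, from which 1 gene expression, 1 hashtag and 1 TCR library were made. Each lineage and each tumor type is therefore 1 sample, and nothing here is a test across mice. Both tumors are transplants of 1 cultured line, and what drives IL-33 in it is not given in the sources used here.

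Of 14035 barcodes, 9078 passed the study's limits on detected genes and mitochondrial UMIs, and these cells held a median of 2466.5 UMIs (unique molecular identifiers, 1 per counted RNA molecule). The gene expression library shared 11756 barcodes with the hashtag library and 6665 with the TCR library. Lineages were set by each cell's own UMIs. CD8 cells (n = 1259) had more UMIs of Cd8a and Cd8b1 than of Cd4 and Foxp3, Treg cells (n = 2610) had Foxp3 and no CD8 UMI, and conventional CD4+ cells (Tconv, n = 1769) had Cd4 without Foxp3 or a CD8 UMI. The 81 cells called NKT had a UMI of Zbtb16, the transcription factor of innate-like T cells, without Foxp3 or CD8 UMIs, and 21 of them also met the rule for Tconv. The other 3380 kept cells met none of the 4 rules.

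The lineage names were checked against marker genes. A UMI of CD3 or a TCR constant region was found in 98.7 to 99.0% of the cells of each lineage. The NKT name was supported in part: of 27 NKT cells with a sequenced alpha chain, 16 carried the TRAV11–TRAJ18 join that defines invariant NKT cells. The rule found 16 of the 62 kept cells with this join, while 29 were in no lineage, 3 were Treg cells and 17 were Tconv cells, 3 of which also met the rule for NKT cells. The lineages were not fully separate by marker. Of CD8 cells, 6.20% had a Foxp3 UMI, 5.72% a Cd4 UMI and 30.7% a UMI of Ikzf2, a gene high in Treg cells. Markers of other cell types were low but not absent. The 6 myeloid markers summed to between 251 and 413 CPM (UMIs of a gene scaled to a common total) in the 4 lineages, against 11354 CPM in 143 sorted cells that had no T cell marker and many myeloid, B cell or melanoma UMIs. These 143 cells, 1.58% of those kept, are called non-T cells and give each receptor's level outside T cells.

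PD-1 (Pdcd1), CTLA-4 (Ctla4) and BTLA (Btla) belong to the CD28 family. CTLA-4 competes with CD28 for CD80 and CD86, whereas PD-1 and BTLA carry cytoplasmic motifs that recruit phosphatases. TIGIT, CD96 and PVRIG (CD112R) bind nectin-type ligands that the activating receptor CD226 also binds, and CD160 shares the ligand HVEM with BTLA. LAG-3 is a relative of CD4 that binds MHC class II, TIM-3 (Havcr2) is a receptor for several ligands on exhausted and effector T cells, and CD39 (Entpd1) is an ectoenzyme that begins the conversion of extracellular ATP to adenosine. In tumors, CD8 cells that keep being stimulated are known to gain several of these receptors together, and tumor Treg cells carry many of them as well.

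The genes lie at 10 separate places in the mouse genome (mm10, that is GRCm38, with GENCODE vM21 gene bounds). On the forward strand were Ctla4 at chr1:60887000-60915832, Havcr2 at chr11:46454935-46481255, Btla at chr16:45224315-45257670, Entpd1 at chr19:40612366-40741602 and Pvrig at chr5:138341961-138343557. Those on the reverse strand were Pdcd1 at chr1:94038305-94052553, Lag3 at chr6:124904361-124911705, Tigit at chr16:43648867-43664146, Cd96 at chr16:46035657-46120251 and Cd160 at chr3:96798763-96829351. The annotated bounds of Lag3 and Cd4, the gene it resembles, are 16139 bases apart, and both are on the same strand. Cd160 overlaps Pdzk1 on the opposite strand, which had 4 UMIs in all kept cells beside the 480 of Cd160. Ctla4 overlaps 1 annotated pseudogene and Entpd1 overlaps 3 other annotated genes on its own strand, so reads of these could not be told apart from the receptor's where they are shared.

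Promoters are shown for Pdcd1, Havcr2 and Cd160, whose levels differed between CD8 clones, and for Ctla4 and Cd96, the one higher and the other lower in Treg than in Tconv cells. They were chosen as examples after the values were seen. RefSeq promoters were found for 9 of the 10 genes, 11 promoters in all, and each sequence runs over the 250 bases before a transcription start (GRCm38.p6, gene strand, 5′ to 3′). Capitals mark matches to motifs searched on both strands, namely TGANTCA (AP-1), TGGAAA (NFAT), TTCNNNGAA (STAT), TGTGGT (RUNX), GGTGTGA (T-box), AAAGGTCA (NR4A) and CCGGAAGT (ETS).
Pdcd1, chr1:94052554-94052803, reverse strand: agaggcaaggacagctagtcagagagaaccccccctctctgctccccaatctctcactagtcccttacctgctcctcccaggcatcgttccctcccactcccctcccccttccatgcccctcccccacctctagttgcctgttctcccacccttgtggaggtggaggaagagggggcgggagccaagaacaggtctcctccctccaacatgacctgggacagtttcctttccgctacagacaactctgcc
Havcr2, chr11:46454681-46454930, forward strand: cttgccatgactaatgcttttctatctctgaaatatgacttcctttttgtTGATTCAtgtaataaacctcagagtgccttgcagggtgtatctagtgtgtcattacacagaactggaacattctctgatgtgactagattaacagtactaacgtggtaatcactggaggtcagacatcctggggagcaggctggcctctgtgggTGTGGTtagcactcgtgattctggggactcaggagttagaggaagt
Ctla4, chr1:60908775-60909024, forward strand: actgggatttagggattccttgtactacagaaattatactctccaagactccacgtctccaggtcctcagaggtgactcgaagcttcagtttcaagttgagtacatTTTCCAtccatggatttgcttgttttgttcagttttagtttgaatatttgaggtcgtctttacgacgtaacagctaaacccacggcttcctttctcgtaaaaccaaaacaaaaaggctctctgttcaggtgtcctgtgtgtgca
Cd160, chr3:96814522-96814771, reverse strand: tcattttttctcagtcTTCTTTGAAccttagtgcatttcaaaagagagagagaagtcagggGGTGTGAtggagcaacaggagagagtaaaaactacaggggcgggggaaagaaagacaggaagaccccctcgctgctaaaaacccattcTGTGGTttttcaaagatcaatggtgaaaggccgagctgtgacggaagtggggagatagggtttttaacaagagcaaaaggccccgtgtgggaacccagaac
Cd96, chr16:46120249-46120498, reverse strand: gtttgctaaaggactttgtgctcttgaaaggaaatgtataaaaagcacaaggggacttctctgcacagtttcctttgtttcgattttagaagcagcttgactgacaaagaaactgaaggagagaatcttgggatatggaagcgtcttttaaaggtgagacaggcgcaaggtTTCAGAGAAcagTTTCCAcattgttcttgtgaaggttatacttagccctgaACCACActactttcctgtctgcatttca
The Havcr2 promoter held an AP-1 match and a RUNX match, that of Ctla4 an NFAT match, the Cd160 promoter shown a STAT, a T-box and a RUNX match, and that of Cd96 a STAT, an NFAT and a RUNX match. The RUNX letters were in 6 of the 11 receptor promoters and in 14.0% of all 32851 promoters of this length. NFAT letters were in 2 of the 11 and 18.6% of all, STAT letters in 2 and 7.02%, AP-1 letters in 1 and 6.75%, and T-box letters in 1 and 3.33%. No receptor promoter held the NR4A or ETS letters, which 1.34% and 2.88% of all promoters held. RUNX factors act throughout T cell development, AP-1 and NFAT act downstream of the TCR, and T-box factors include T-bet and Eomes. The promoter of Pdcd1 held none of these letters. Cd160 has another promoter, at chr3:96829352-96829601, which held a RUNX match alone. Short matches of this kind are a description of the sequence and say nothing of whether a factor binds.

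Levels are given as CPM of the summed UMIs of a lineage, with exact 95% Poisson intervals in parentheses, and ratios of CPM carry exact conditional binomial intervals. All intervals cover counting error only, not differences between mice. CPM values of 1 gene are compared across lineages and not between genes. A ratio of at least 1.5 in either direction is called past the fold where the 2 lineages together hold at least 50 UMIs of the gene. Between CD8 and Treg cells, 3 of the 10 receptors were past the fold toward CD8 cells, where 7.16% of the 9288 genes measured were, and 5 toward Treg cells, where 22.5% were. Between Treg and Tconv cells 6 of 10 were higher in Treg cells, against 12.6% of 9280 genes, and 2 were lower, against 5.81%. The median log2 ratio of the 10 between Treg and Tconv cells was 1.20, and that of all genes measured was 0.09.

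The receptors highest in Treg cells were led by Ctla4. Ctla4, through which Treg cells are known to strip CD80 and CD86 from antigen-presenting cells, stood at 1188 CPM (1165 to 1212) in Treg, 421 (403 to 439) in Tconv, 229 (216 to 243) in CD8 and 101 (66.9 to 145) in NKT cells. Its level in Treg cells was 5.18-fold that in CD8 cells (4.88 to 5.51) and 2.82-fold that in Tconv cells. Its non-T background was 12.9 CPM (5.92 to 24.6). The order was thus Treg, Tconv, CD8 and NKT, and none of the 4 intervals overlapped its neighbor. The levels moved more with the processing than these intervals show. Over the alternatives run they were 1055 to 1317 CPM in Treg, 223 to 566 in Tconv and 188 to 255 in CD8 cells. The step from Tconv to CD8 cells thus depends on which cells are kept.

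Tigit followed the same order. It stood at 607 CPM (590 to 624) in Treg, 255 (241 to 269) in Tconv, 160 (149 to 171) in CD8 and 53.9 (30.2 to 88.9) in NKT cells, with 14.4 CPM in non-T cells. The Treg level was 3.79-fold that of CD8 cells (3.52 to 4.09) and 2.38-fold that of Tconv cells. Pvrig, which binds the TIGIT ligand CD112, was also highest in Treg cells, at 29.0 CPM (25.5 to 33), against 9.76 (7.22 to 12.9) in Tconv and 6.93 (4.83 to 9.64) in CD8 cells, whose intervals overlapped. No Pvrig UMI was found in NKT cells, where a level of up to 13.3 CPM is allowed by the interval.

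Lag3 was highest in Treg cells at 361 CPM (348 to 374), lower in CD8 cells at 170 (158 to 181) and in Tconv cells at 137 (127 to 148), and rested on 1 UMI in NKT cells. The Treg level was 2.13-fold that of CD8 cells (1.97 to 2.30) and 2.64-fold that of Tconv cells. CD39 (Entpd1) stood at 54.9 CPM (50.01 to 60.2) in Treg, 24.9 (20.7 to 29.7) in Tconv and 24.0 (19.9 to 28.6) in CD8 cells. Tconv and CD8 cells thus did not differ in Entpd1 beyond counting error, which held for the whole Tconv set only. Non-T cells did not lack Entpd1, at 48.9 CPM (33.9 to 68.3), and 18.9% of them had a UMI against 7.70% of CD8 and 5.94% of Tconv cells. In CPM the Entpd1 levels of CD8 and Tconv cells lay below that of non-T cells, which cannot serve as its background.

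The receptors highest in CD8 cells were Cd160 and Pdcd1. Cd160 stood at 67.3 CPM (60.3 to 74.8) in CD8 cells, 21.6 (7.91 to 46.9, 6 UMIs) in NKT, 6.37 (4.36 to 8.999) in Tconv and 2.42 (1.48 to 3.74) in Treg cells, with no UMI in non-T cells. The CD8 level was 27.8-fold that of Treg cells (17.7 to 46.1) and 10.6-fold that of Tconv cells (7.34 to 15.7). The NKT interval overlapped that of Tconv cells. No other of the 10 genes differed as much between any of the 3 larger lineages. Pdcd1 stood at 138 CPM (128 to 148) in CD8, 89.4 (81.4 to 98.1) in Tconv, 68.9 (63.3 to 74.8) in Treg and 39.5 (19.7 to 70.7) in NKT cells. Its CD8 level was 1.998-fold that of Treg cells (1.79 to 2.24) and 1.54-fold that of Tconv cells (1.36 to 1.74), and the Treg and NKT intervals overlapped.

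Havcr2 was shared by CD8 and Treg cells. Its level was 56.0 CPM (49.7 to 62.9) in CD8 and 57.6 (52.6 to 63.0) in Treg cells, against 23.5 (19.5 to 28.2) in Tconv cells and 1 UMI in NKT cells. The ratio of CD8 to Treg cells was 0.97, and that of CD8 to Tconv cells was 2.38 (1.92 to 2.98). Non-T cells had Havcr2 as well, at 20.1 CPM (11.01 to 33.8), and their interval overlapped that of Tconv cells. TIM-3 is known from macrophages and dendritic cells, and 9.09% of non-T cells had a UMI, so non-T cells cannot serve as its background either.

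Cd96 and Btla were the receptors with little or no excess in Treg or CD8 cells over Tconv cells. Cd96 stood at 61.1 CPM (35.6 to 97.8) in NKT, 50.9 (44.8 to 57.5) in CD8, 44.2 (38.6 to 50.4) in Tconv and 18.2 (15.4 to 21.3) in Treg cells, with no UMI in non-T cells. The first 3 lineages overlapped, and CD8 cells stood 2.80-fold above Treg cells (2.28 to 3.45). Btla was at 18.3 CPM (14.8 to 22.5) in Tconv, 12.3 (10.1 to 15.0) in Treg, 10.8 (2.22 to 31.5, 3 UMIs) in NKT and 8.51 (6.16 to 11.5) in CD8 cells. Only 346 Btla UMIs were counted in all kept cells, and apart from Tconv against CD8 cells every pair of lineages had overlapping intervals. The intervals of the ratios among the 3 larger lineages nevertheless lay below 1. They were 0.67 for Treg to Tconv cells (0.50 to 0.90), 0.69 for CD8 to Treg cells (0.47 to 0.99) and 0.46 for CD8 to Tconv cells (0.32 to 0.67).

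**Figure D1:**
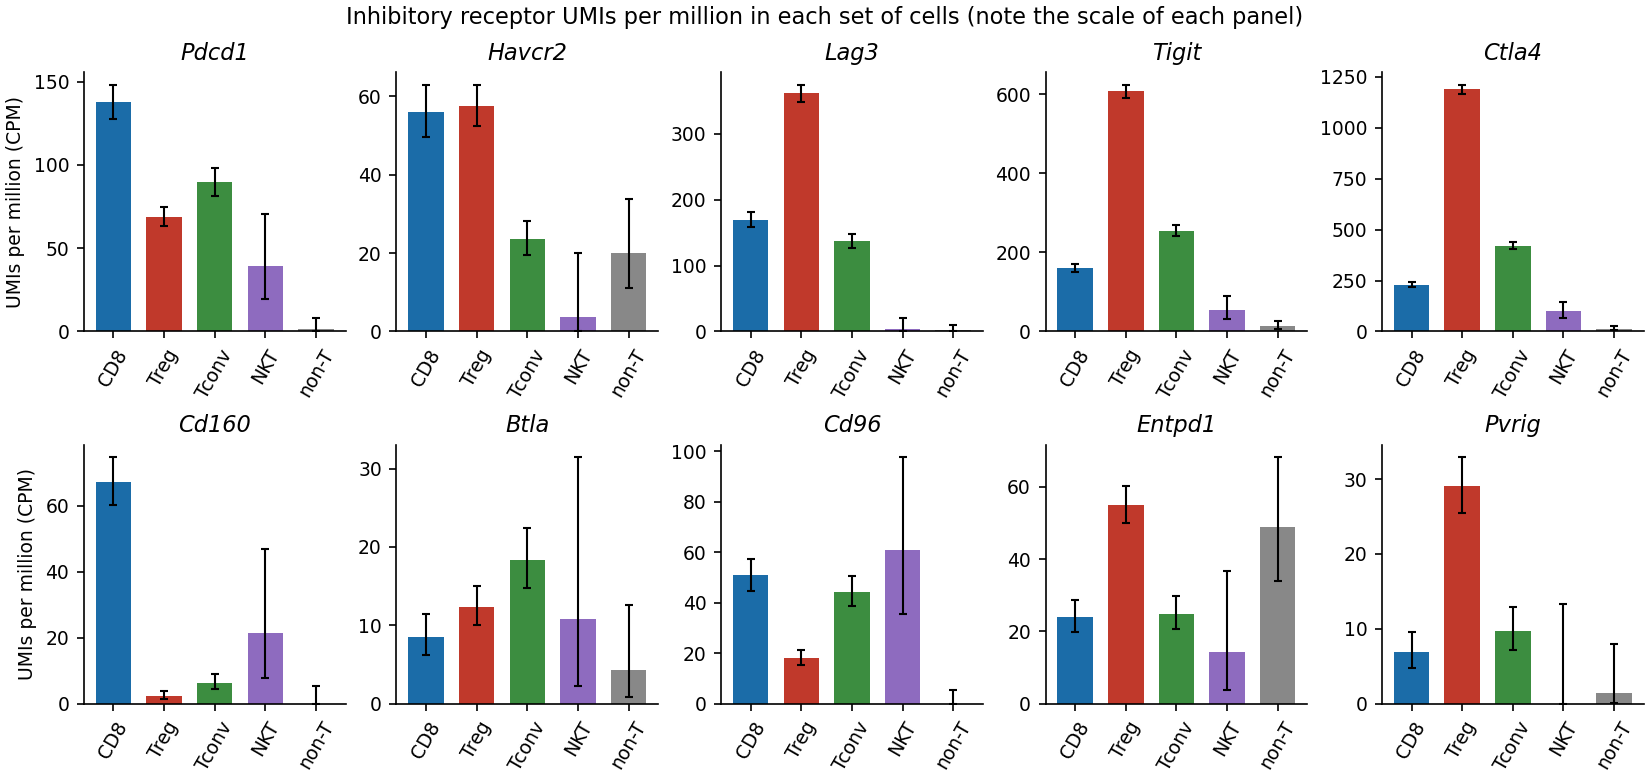
Level of each of the 10 receptor genes as bars in CPM, each panel with its own linear axis from 0, in CD8, Treg, Tconv and NKT cells and in non-T cells, with lines for the exact 95% Poisson interval of each sum. Among the 4 lineages Ctla4, Tigit, Lag3, Entpd1 and Pvrig are highest in Treg cells, Cd160 and Pdcd1 are highest in CD8 cells, and Havcr2 is level between CD8 and Treg cells.

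Against CD8 cells, Tconv cells were past the fold upward for Tigit, Ctla4 and Btla, with CD8 to Tconv ratios of 0.63, 0.54 and 0.46, where 12% of 8652 genes were, and downward for Pdcd1, Havcr2 and Cd160, where 5.17% were. The Tconv set was not uniform. Of its 1769 cells, 697 had a UMI of Il2ra or Ikzf2, genes that Treg cells express at high levels and that activated T cells can also express, and 1072 had none. After thinning to equal depth, which kept 531 and 916 of them, 42.6% of the former and 18.7% of the latter had Ctla4. Tigit was found in 36.0% against 13.0% and Lag3 in 18.0% against 4.56%. Without the 697 cells, the CD8 to Tconv ratio was 1.24 for Tigit (1.10 to 1.41) and 1.03 for Ctla4 (0.94 to 1.13), so neither was higher in Tconv cells. Lag3 stood at 54.6 CPM in these Tconv cells, and the Treg level was then 6.62-fold that of Tconv cells. Pdcd1, Cd96 and Btla moved less, to 78.9, 49.9 and 18.6 CPM. Whether the 697 cells include Treg cells whose Foxp3 was not counted was not tested.

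NKT cells carried few of these receptors. Against Tconv cells without a Zbtb16 UMI, 8 of the 10 had enough UMIs, and 7 were past the fold downward, where 23.4% of 7200 genes were, with none upward, where 10.5% were. Tigit was at 0.21 times the Tconv level (0.12 to 0.35), Ctla4 at 0.24 times and Pdcd1 at 0.44 times (0.22 to 0.79). Lag3 and Havcr2 rested on 1 UMI each in the 81 NKT cells. The ratios of Btla, 0.58 (0.12 to 1.74), and Entpd1, 0.57 (0.15 to 1.49), had intervals that include 1. Cd96 was at 1.40 times the Tconv level with an interval of 0.80 to 2.30. Cd160, with too few UMIs to be counted, ran the other way at 3.55 times (1.21 to 8.67), on 6 UMIs in NKT cells. These 81 cells hold 278284 UMIs in all, which limits every NKT value here.

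Shares of cells were compared after thinning each cell to 1500 UMIs, because lineages differed in depth, with median UMIs per cell from 2498 in Tconv to 3464 in CD8 cells. Cells under 1500 UMIs were left out, which removed 108 CD8, 455 Treg, 322 Tconv and 2 NKT cells. A share is then the mean over all possible draws. At this depth 66.3% of Treg cells had a Ctla4 UMI, 51.6% a Tigit UMI and 28.4% a Lag3 UMI, while in CD8 cells Ctla4 was found in 19.4%, Tigit in 18.5%, Lag3 in 15.3% and Pdcd1 in 14.9%. Cd160 was found in 8.17% of CD8 cells and in 0.33% of Treg cells. The order of lineages by share was that by CPM for Ctla4, Tigit, Pdcd1 and Cd160.

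Most Treg cells had several of the receptors. At least 2 of the 10 were found in 57.6% of Treg cells (55.5 to 59.7), 25.5% of CD8 cells (23.0 to 28.2), 21.8% of Tconv cells (19.7 to 24.0) and 5.17% of NKT cells (1.45 to 12.6). Non-T cells reached 1.81%. At least 3 were found in 26.0% of Treg, 8.69% of CD8 and 7.37% of Tconv cells, while none was found in 13.2% of Treg, 42.4% of CD8, 46.7% of Tconv and 70.3% of NKT cells. CD8 and Tconv intervals overlapped for at least 2 receptors, and the Treg share stood apart from both. If the 10 genes were found independently at their own shares, 60.2% of Treg, 24.2% of CD8 and 20.1% of Tconv cells would have at least 2, so the observed share was below this value in Treg cells, and within its interval of it in CD8 and Tconv cells. Cells with none were more frequent than under independence, where 8.32% of Treg, 36.0% of CD8 and 39.2% of Tconv cells would have none. Among Tconv cells the share was 37.9% with an Il2ra or Ikzf2 UMI and 12.4% without.

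At full depth, 51.3% of CD8, 74.1% of Treg, 39.3% of Tconv and 16.05% of NKT cells had at least 2 receptors. The most found in any cell was 8 of the 10, in 4 CD8 cells. In Treg cells the most was 7, in 2 cells, and in Tconv cells it was 6, in 8 cells. Thinning to 1000 UMIs per cell gave 16.5% of CD8 and 44.4% of Treg cells, so every such share is a statement about a fixed depth. Tconv cells were then at 17.1%, above CD8 cells in place of below them.

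**Figure D2:**
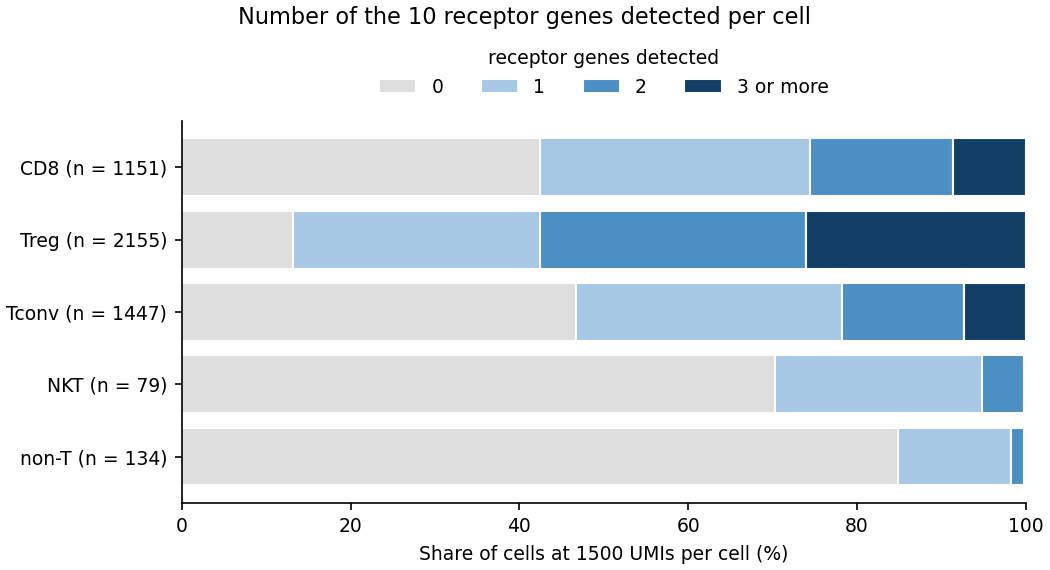
Percent of cells, thinned to 1500 UMIs, in which none, 1, 2 or at least 3 of the 10 receptor genes were found, as stacked bars for each lineage and for non-T cells. None was found in 13.2% of Treg cells and in 70.3% of NKT cells, and CD8 and Tconv cells lie between these.

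Co-expression was measured pair by pair. The co-detection ratio is the share of thinned cells with both genes divided by the product of the single shares, so it is 1 where the genes are found independently, and it was computed only where at least 3 joint cells were expected. Among 25 measured pairs in CD8 cells the median was 1.39, and 10 pairs reached 1.5. In Tconv cells 13 of 25 reached 1.5 with a median of 1.51, and in Treg cells 4 of 34 with a median of 1.13. Over all pairs of genes found in at least 5% of thinned cells, 4.64% reached 1.5 in CD8, 3.6% in Tconv and 1.83% in Treg cells, and the medians were 1.00. Held to that same 5%, 6 of 21 receptor pairs reached 1.5 in CD8 cells, 4 of 10 in Tconv cells and 2 of 15 in Treg cells. The pairs are not independent, since they share genes and cells. A ratio also cannot exceed 1 divided by the larger of the 2 shares. Lineages with unlike shares therefore have unlike ceilings, and these counts and medians do not rank them by strength of co-expression.

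In CD8 cells the highest of the 25 ratios at this depth was that of Havcr2 with Lag3, found together in 27.6 cells on average where 10.8 were expected, a ratio of 2.56 (1.70 to 3.70). Havcr2 with Entpd1, found together in 6.12 cells where 2.14 were expected, fell under the minimum of 3 and got no ratio. Lag3 was found in 39.2% of CD8 cells with Havcr2 and in 13.7% of those without. Next came Lag3 with Entpd1 at 2.34 (1.23 to 4.03), Pdcd1 with Lag3 at 1.73 (1.27 to 2.30), Tigit with Entpd1 at 1.71 and Pdcd1 with Havcr2 at 1.66 (0.98 to 2.63). Lag3 was thus in 3 of the 5 highest pairs. Cd160 was in none of the 5 highest pairs. Its ratio was 0.71 with Ctla4 (0.38 to 1.22), the lowest of the 25, and its highest was 1.64 with Cd96 (0.83 to 2.92), both with intervals that include 1. At full depth, where cells differ in UMIs, Cd160 was at 1.38 with Pdcd1 (1.10 to 1.69), 1.37 with Lag3 (1.09 to 1.68) and 1.79 with Cd96 (1.39 to 2.26). Its full-depth intervals with the other receptors include 1, with Ctla4 at 1.00. Whether Cd160 is apart from the other receptors is therefore not settled by these ratios.

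In Tconv cells Havcr2 with Lag3 again had the highest measured ratio, 4.32 (2.39 to 7.17), with Lag3 in 40.9% of cells with Havcr2 and 8.70% of those without. Lag3 with Entpd1 followed at 3.57, Havcr2 with Tigit at 2.50, Lag3 with Tigit at 2.38 (1.87 to 2.99) and Havcr2 with Ctla4 at 2.34. In the 916 thinned Tconv cells without Il2ra or Ikzf2, 4 of 12 measured pairs reached 1.5 and the median was 1.20. In Treg cells ratios were lower. The ceiling of pairs with Ctla4 or Tigit was low there as well, since these were found in 66.3% and 51.6% of thinned Treg cells. Havcr2 with Lag3 was highest there too, at 1.66 (1.302 to 2.08), followed by Lag3 with Pvrig at 1.61, Lag3 with Entpd1 at 1.55 and Entpd1 with Pvrig at 1.51. The last pair fell to 0.96 in a single random draw and is not stable. Among pairs with at least 3 joint cells expected at this depth, the pair with the highest ratio was therefore the same in all 3 lineages. Pairs under that minimum, such as Havcr2 with Entpd1 in CD8 cells, could not enter this ranking. At full depth other pairs led, Havcr2 with Entpd1 in CD8 cells at 2.98 against 2.52 for Havcr2 with Lag3, Lag3 with Pvrig in Tconv cells at 3.44 against 3.39, and Entpd1 with Pvrig in Treg cells at 1.74 against 1.52. The intervals of each leading pair and of Havcr2 with Lag3 overlapped.

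Cd96 moved the other way in Treg cells. It was found with Lag3 in fewer cells than expected, at a ratio of 0.36 (0.13 to 0.80), and its ratio with Tigit was 0.66 with an interval that includes 1 (0.39 to 1.024). Cd96 was found in 2.56% of thinned Treg cells, so few cells stand behind these ratios. In CD8 cells the ratio of Cd96 with Lag3 was near 1.

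**Figure D3:**
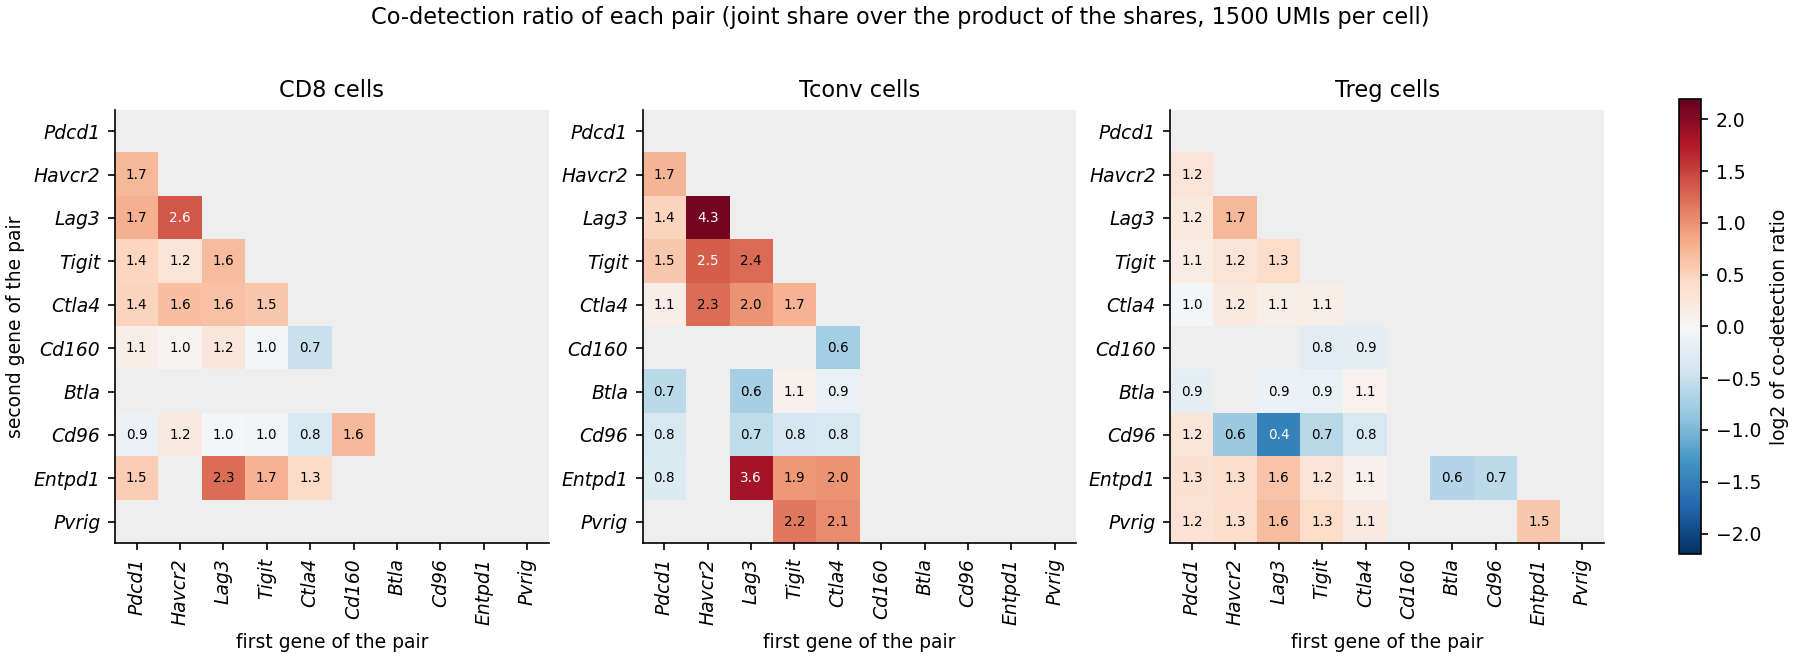
Co-detection ratio of each receptor pair in CD8, Tconv and Treg cells thinned to 1500 UMIs, printed in each square and colored on a log2 scale; gray squares had fewer than 3 joint cells expected. Of the pairs measured at this depth Havcr2 with Lag3 has the highest ratio in each panel, 2.56 in CD8, 4.32 in Tconv and 1.66 in Treg cells.

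Sets of 3 receptors were found together more often than the product of their shares. Lag3, Tigit and Ctla4 were found together in 309 thinned Treg cells where 209 were expected, in 43.8 Tconv cells where 8.06 were expected, and in 18.1 CD8 cells where 6.32 were expected. Pdcd1, Havcr2 and Lag3, a set used to mark exhausted CD8 cells, were found together in 8.75 CD8 cells, 0.76% of those thinned (0.34 to 1.45), where 1.61 were expected. At full depth the same 3 were found in 86 of these CD8 cells. The ratio of observed to expected for Lag3, Tigit and Ctla4 was 2.86 in CD8, 5.43 in Tconv and 1.48 in Treg cells. The highest value it can take is lowest in Treg cells, where the single shares are highest, so these ratios do not rank the lineages.

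Havcr2, Lag3 and Pdcd1 were found with Gzmb in CD8 cells more often than independent detection gives. Havcr2 was found with Gzmb, the main granzyme of killer cells, at 1.70 times the product of the shares (1.28 to 2.22), Entpd1 at 1.58 times, Lag3 at 1.46, Pdcd1 at 1.42, Ctla4 at 1.33 and Tigit at 1.23 times. Cd160 stood at 0.87 (0.61 to 1.20) and Cd96 at 0.90. With Prf1, the perforin gene, the ratio was 2.30 for Havcr2 (1.41 to 3.54) and 1.87 for Lag3. Havcr2 was found with Tcf7, the factor of memory and stem-like T cells, at 0.23 times that product (0.05 to 0.64), and Lag3 0.38 times. Cd96 went the other way with Tcf7 at 1.37, with an interval of 0.87 to 2.04. Among the 637 thinned CD8 cells with a Gzmb UMI, 2 of 24 receptor pairs reached 1.5, Havcr2 with Lag3 at 1.95 and Lag3 with Entpd1 at 1.92, and the median was 1.15 against 1.39 in all CD8 cells.

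The genes whose detection was most like that of each receptor, by the phi coefficient over thinned cells, are given as a description. Phi is the correlation of presence and absence, and values near 0 are weak. In 1151 CD8 cells Cd160 was most like Xcl1, a chemokine that attracts cross-presenting dendritic cells, with a phi of 0.22, and Cd160 was found in 24.8% of cells with Xcl1 and 6.66% of those without. Ctla4 was most like Tnfrsf9, the costimulatory receptor 4-1BB, at 0.26, Lag3 most like Rgs16 at 0.21, and Pdcd1, Havcr2 and Tigit each most like Lag3 at 0.17. In 2155 Treg cells Lag3 was most like Cst7 at 0.25, Tigit most like Lag3 at 0.23 and Ctla4 most like Tnfrsf4, the receptor OX40, at 0.19. The points of each value are cells of the same library at the same depth.

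Cells with at least 2 receptors were set beside cells with none, in 1 random draw and with the receptors left out. In CD8 cells, 301 against 497, the 5 highest ratios were those of the metallothionein Mt1 at 4.95 (3.52 to 7.08), the EGFR ligand Areg at 4.83 (3.06 to 7.85), Tnfrsf9 at 4.73 (3.57 to 6.35), the G protein regulator Rgs16 at 4.55 and Tnfrsf4 at 3.60. In Treg cells, 1230 against 271, they were Ltb4r1 at 7.64, the chemokine receptor Ccr8 at 4.75 (3.099 to 7.65), Itgb8 at 4.52, the phosphatase Dusp4 at 4.27 and Il10 at 4.19. In Tconv cells, 301 against 664, they were Areg at 13.7 (10.2 to 18.7), Klrg1 at 11.9, Cxcl2, a neutrophil chemokine, at 11.03, Tnfrsf9 at 10.2 (8.06 to 12.9) and Tnfrsf4 at 8.04. Tnfrsf9 and Tnfrsf4, both receptors of activated T cells, were thus among the 5 in CD8 and in Tconv cells. Areg, Klrg1, Tnfrsf9 and Tnfrsf4 were also past the fold toward Treg cells against both CD8 and Tconv cells. Ikzf2, another such gene, was at 609 CPM against 121 in this split of Tconv cells, a ratio of 5.01 (4.03 to 6.26). In CD8 cells its ratio was 1.47 (1.09 to 1.98). Whether Treg cells missed by the lineage rules add to these ratios was not tested.

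Of the listed activating or paired receptors, 5 of 7 measured were past the fold upward in CD8 cells with several inhibitory receptors, where 8.83% of 1415 genes were. The counts were 7 of 8 in Treg cells, where 15.6% of 3061 genes were, and 6 of 8 in Tconv cells, where 15.7% of 1804 genes were. Icos, Tnfrsf4, Tnfrsf9, Tnfrsf18 and Cd2 were among them in all 3 lineages. Tcf7 was past the fold downward in all 3 lineages, where 4.1%, 2.87% and 4.43% of genes were. Lyz2, a myeloid gene, moved with the split: it had 7 UMIs in the CD8 cells with several receptors and 127 in those with none, and 35 and 109 in Treg cells. Hbb-bs, a hemoglobin gene, had 0 and 461 UMIs in the same CD8 cells. Of the 1151 thinned CD8 cells, 1146 had no hemoglobin UMI, so the 461 came from very few cells. Leaving out cells with at least 3 marker UMIs of other cell types gave 11 pairs past the fold in CD8, 13 in Tconv and 3 in Treg cells, and leaving out cells with a hemoglobin UMI gave 10, 12 and 4.

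The genes around the pathway followed the lineages, with counts read against the shares of all genes given above. Of 9 measured activating or paired receptors, 6 were lower in CD8 than in Treg cells, among them Tnfrsf4, at 156 CPM against 1510, and Tnfrsf9, at 252 CPM against 1214. CD226, the activating partner of TIGIT and CD96, was the 1 that was higher, with Cd226 at 55.4 CPM in CD8 and 10.9 in Treg cells, a ratio of 5.09 (3.999 to 6.53). Tigit and Cd226 thus differed in opposite directions between these lineages.

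Of 10 other inhibitory receptors, 2 were higher in CD8 than in Treg cells, Klrc1 (NKG2A) at 180.5 CPM against 10.5 and Lair1 at 7.32 against 2.66, and 6 were lower, among them Klrg1 at 62.6 against 300.3. Of 7 measured ligands, Cd274 (PD-L1), Pdcd1lg2 (PD-L2) and Cd80 were higher in Treg than in CD8 cells. Cd274 stood at 60.3 CPM in Treg and 26.7 in CD8 cells, and Cd86 was the 1 ligand higher in CD8 cells. These ligands are also genes of antigen-presenting cells, and the MHC class II gene H2-Ab1 stood at 101.2 CPM in Treg and 24.3 in CD8 cells. The dendritic markers Flt3, Xcr1 and Siglech were at or below 0.85 CPM in both. Xcr1 and Siglech had 0 UMIs in non-T cells as well, where H2-Ab1 stood at 1651 CPM. Their low level therefore cannot show whether RNA of other cells was present, and the part of other cells in these ligand values was not tested. Of 10 signalling genes and enzymes 3 were higher in CD8 cells and 4 lower, and Nt5e (CD73), the enzyme that acts after CD39, stood at 48.9 CPM in Treg and 17.8 in CD8 cells.

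Of 17 transcription factors, 5 were higher in CD8 cells, led by Eomes at 55.0 CPM against 2.42, and 6 were lower, among them Maf at 63.1 against 499.9 and Prdm1 at 33.5 against 91.5. Tox, tied to exhaustion, stood at 48.7 CPM in CD8, 69.4 in Treg and 45.6 in Tconv cells, and CD8 cells differed by less than the fold from either. Of 15 effector and state genes 6 were higher in CD8 than in Treg cells and 3 lower.

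The TCR library gave a readout that did not set the lineages. Clones are the clonotypes of the deposited TCR table, called expanded where 2 or more cells of a lineage share one. In CD8 cells, 200 cells of 73 expanded clones were set beside 721 single cells. Havcr2 stood at 88.7 CPM in expanded and 45.4 in single cells, a ratio of 1.95 (1.48 to 2.57), Pdcd1 at 219 and 122.5, a ratio of 1.79 (1.51 to 2.12), and Lag3 at 246 and 154, a ratio of 1.60 (1.36 to 1.87). Entpd1 was past the fold with an interval that includes 1, at 1.53 (0.95 to 2.42). Cd160 was lower in expanded clones, at 38.6 CPM against 84.9, a ratio of 0.45 (0.31 to 0.64).

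Tigit and Ctla4 stood at ratios of 1.07 (0.89 to 1.28) and 0.98 (0.83 to 1.14) between expanded and single CD8 cells. In all, 4 of the 10 receptors were past the fold upward, where 5.7% of 6282 genes were, and 1 downward, where 8.91% were. The largest clone, of 13 cells, gave 42 of the 236 Lag3 UMIs of expanded clones, 17.8%, and no receptor changed by more than its counting interval without it. Expanded cells were deeper, with a median of 4402 UMIs against 3980. After thinning, 33.4% of expanded (26.8 to 40.5) and 24.9% of single CD8 cells (21.7 to 28.2) had at least 2 receptors, with intervals that overlap.

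In CD4+ cells the clones were fewer. In Treg cells, 98 cells of 46 expanded clones and 1607 single cells differed by less than the fold for Lag3, at a ratio of 1.27, Tigit at 1.25 and Ctla4 at 1.20. Only Cd96 was past it, at 1.501 on 9 UMIs, where 9.03% of 7678 genes were. In Tconv cells, 63 cells of 27 expanded clones and 1117 single cells, Lag3 was lower in expanded clones, at 0.15 (0.04 to 0.38) on 4 UMIs, and Cd96 higher, at 1.91 (1.08 to 3.17). There 12.8% of 6293 genes were past the fold upward and 18.5% downward. The Lag3 ratio in Tconv cells moved to 0.71 (0.48 to 1.03) with clones set by the beta chain and to 0 (0 to 0.35) with clones of at least 3 cells. The directions of Lag3 in CD8 and Tconv clones were not tested against each other.

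Il1rl1 encodes the IL-33 receptor, and Treg cells that carry it are the population the study turns to. In thinned Treg cells, 278 had an Il1rl1 UMI and 1877 had none. Lag3 stood at 134 CPM with Il1rl1 and 407 without, a ratio of 0.33 (0.25 to 0.43), and was found in 14.0% against 30.7% of the cells. It was the 1 receptor past the fold downward, where 10.2% of 6023 genes were, and none was past it upward, where 8.09% were. This count rose to 3 in a second random draw, with Pdcd1 at 0.60 (0.35 to 0.97) and Havcr2 at 0.62 (0.34 to 1.05), and to 3 without thinning. Tigit was lower by less, at 444 CPM against 659 and a ratio of 0.67 (0.58 to 0.78). Ctla4 was higher with Il1rl1, at 1480 CPM against 1214, a ratio of 1.22 (1.12 to 1.33). The intervals of the other 7 ratios include 1 in the first draw. Lag3 and Tigit were lower and Ctla4 higher in the second draw and without thinning as well. Among thinned Treg cells with a B16 tag only, 4 had an Il1rl1 UMI and 213 had none. In these 4 cells Ctla4 and Lag3 had no UMI, with ratios of 0 (0 to 0.65) for Ctla4 and 0 (0 to 1.58) for Lag3, so the direction of Ctla4 did not hold there. Cells without an Il1rl1 UMI at this depth can include cells that carry the transcript.

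**Figure D4:**
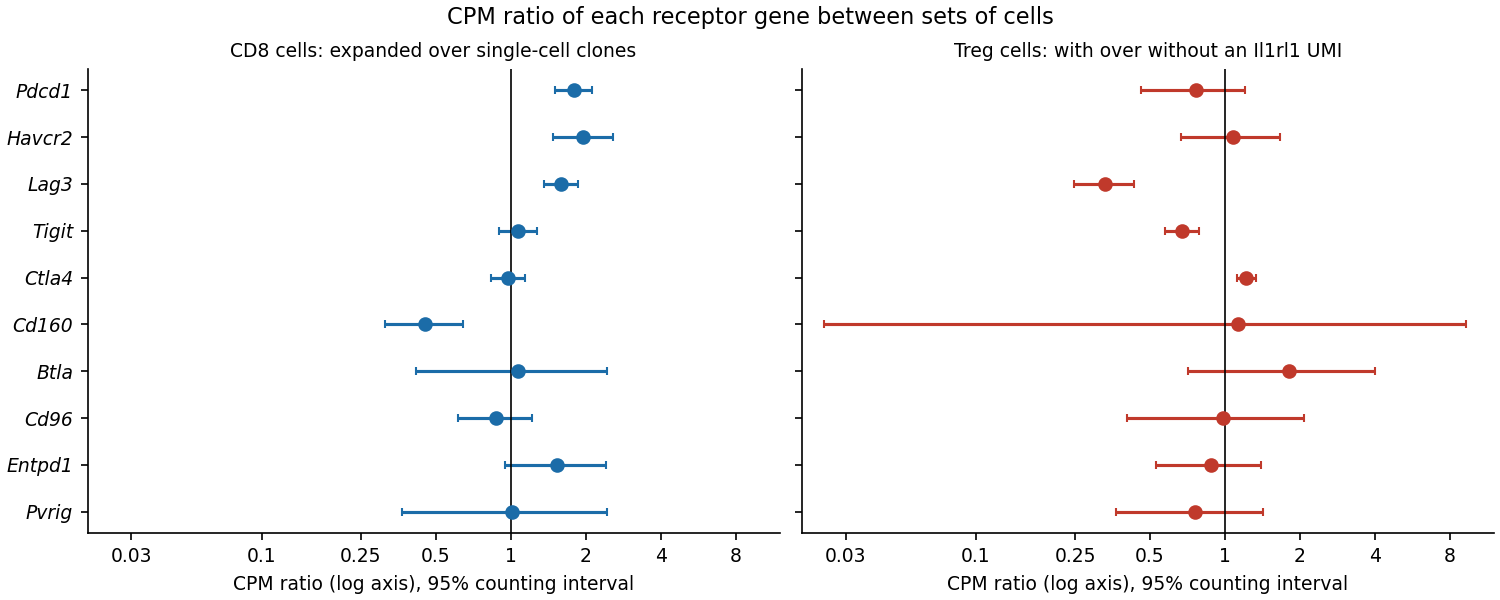
Ratio of CPM (log axis) of each receptor gene between expanded and single-cell clones of CD8 cells, left, and between thinned Treg cells with and without an Il1rl1 UMI, right, with exact 95% counting intervals. Pdcd1, Havcr2 and Lag3 lie above 1 and Cd160 below 1 on the left, and Lag3 lies at 0.33 on the right.

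Cells were given to a tumor type where all their hashtag UMIs came from tags of that type, which left few cells and rests on few tag UMIs per cell. In Treg cells, 55 tagged B16IL33 and 245 tagged B16, Lag3 stood at 480 CPM (385 to 593) and 351, a ratio of 1.37 (1.07 to 1.74). Ctla4 stood at 1220 and 871, a ratio of 1.40 (1.20 to 1.63), while Tigit was at 1.05 (0.85 to 1.29). By single tag, Lag3 in Treg cells was at 518 and 466 CPM with the 2 B16IL33 tags and at 429 and 308 with the 2 B16 tags, and Ctla4 at 1414 and 1146 against 815 and 899. As point values, given here without intervals, the tags of the 2 tumor types did not overlap for either gene. Lag3 with the B16IL33 tags rested on 26 UMIs in 18 cells and 61 UMIs in 37 cells, so counting error by tag is wide. What sets the tags of a type apart is not given in the sources used here. Treg cells tagged B16IL33 were shallower, with a median of 2467 UMIs against 3401.

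No receptor with 50 UMIs was past the fold upward in tagged Treg cells, where 9.94% of 3019 genes were, and 1 was downward, where 13.2% were. This was Pdcd1, at 66.3 CPM against 105, a ratio of 0.63 (0.31 to 1.15), which turned to 1.86 with the tags numbered 1 alone. In CD8 cells, 19 against 103, Havcr2 stood at 130.6 CPM against 34.0, a ratio of 3.85 (1.58 to 9.12) that rests on 25 UMIs and was not counted. Havcr2 was at 191.7 and 70.6 CPM with the B16IL33 tags and 47.8 and 27.6 with the B16 tags. Tigit was past the fold downward in CD8 cells at 0.59 with an interval of 0.26 to 1.18, where 12.6% of 1157 genes were, and 9.16% were past it upward. In Tconv cells, 17 against 164, Pdcd1 had 0 UMIs against 51, with an upper bound of 0.77 on the ratio, and Ctla4 was at 1.59 (0.99 to 2.46), where 22.3% and 10.7% of 1258 genes were past the fold in these directions. All 24 Ctla4 UMIs of the B16IL33 Tconv cells came from 1 of the 2 tags. Each tumor type is 1 sample, so none of these values separates the tumor from the animals and cells that happened to be tagged.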

How the data were processed

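T cells sorted from B16 and B16IL33 tumors were pooled, and a 5′ droplet kit gave libraries of their transcripts, their hashtags and their TCR chains. The deposited gene expression values are unnormalized UMI counts. The authors obtained these counts with Cell Ranger, using mm10 joined to a human genome. The matrix header gives version 3.1.0 and the submitters' processing notes list 6.1.1, and it is not known which applies. The hashtag values are deposited counts as well, and the TCR table as filtered contigs with clonotypes called over the whole pool. The library held 43420305 mouse and 8562 human UMIs over 14035 barcodes.

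Genes in at least 4 barcodes and cells of 200 to 2500 detected genes with under 5% mitochondrial UMIs were kept, as the study's methods state, which left 9078 cells and 26604560 UMIs. Lineages were set by each cell's own UMIs. No doublet caller was run. Cells with at least 2 productive beta chains, 85 of the CD8, 143 of the Treg and 102 of the Tconv cells, were left out in an alternative.

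Non-T cells were kept cells with no UMI of a CD3 or TCR constant gene and at least 10 UMIs of B cell, myeloid and melanoma markers. UMIs were summed over cells and scaled to CPM. Counts past a fold of 1.5 covered genes with at least 50 UMIs in both sets together, or at least 100 thinned UMIs where cells with several receptors were compared with cells that had none. Shares, numbers of receptors per cell and pairs came from thinning each cell to 1500 UMIs, as the exact mean over all draws. A single seeded draw served for all-gene pairs, for the split by Il1rl1 and for cells with several receptors. Tumor type came from cells with at least 1 tag UMI and no tag UMI of the other type. Coordinates were taken from GENCODE vM21, which held 30934 of the 31053 gene identifiers. Intervals at 95% were computed in SciPy 1.17.1, with pandas 2.3.3 and NumPy 2.4.6. The scripts were tested on simulated data.

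The 10 receptors and all gene lists were chosen with earlier results of these data known. The genes named were the 10 receptors and members of fixed lists of ligands, activating or paired receptors, other inhibitory receptors, signalling genes, transcription factors and effector genes. In addition, the 5 highest and 3 lowest pairs of a lineage and the 5 highest ratios in cells with several receptors were named. Xcl1, Cst7 and Rgs16 were named as the genes most alike by phi among genes in at least 5% of cells. Lyz2 and Hbb-bs were named after their values were seen.

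Alternatives covered the limits on detected genes and mitochondrial UMIs, cells without CD3, cells with markers of other types, doublets, cells with a TCR, the CD8 and NKT rules, CPM averaged over cells, the fold, the minimum of UMIs, the thinning, the tags and the definition of a clone.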

Additional observations from a re-analysis of the deposited data

Results flagged for a closer look

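The study's upper limit on detected genes left out cells that enter the values above only through alternatives, and the 10 receptors gave signal in them. Of these, 278 met the rule for CD8 cells, with a median of 14536 UMIs, and 44 of them had at least 2 productive beta chains, a mark of doublets. Pdcd1 stood at 203 CPM in these cells and Havcr2 at 94.6 CPM, which is 1.47-fold and 1.69-fold the level within the limit. Lag3 stood at 175 CPM, Ctla4 at 225, Tigit at 139.6, Cd160 at 59.0, Cd96 at 39.3, Entpd1 at 32.5, Pvrig at 5.74 and Btla at 3.98 CPM. Thinned to 1500 UMIs, 37.4% of these cells had at least 2 of the receptors. In the 224 cells above the limit that met the rule for Treg cells, Lag3 was at 0.39 times and Ctla4 at 0.57 times the level within the limit. The share that doublets have in these values was not tested.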

How the results depend on the processing

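Over 2477 comparisons of a value with an alternative, 2203 stayed within the counting interval or within 1.5 times a count, 262 moved and 12 turned direction. The counts of receptors past the fold in CD8 against Treg, Treg against Tconv and NKT against Tconv cells stayed within that range under every alternative run, while that in CD8 against Tconv cells fell from 6 to 3 at a fold of 2. The share with at least 2 receptors depends on depth: thinned to 1000 UMIs it was 16.5% in CD8, 44.4% in Treg and 17.1% in Tconv cells, to 2000 UMIs 34.7%, 66.3% and 26.9%, and without thinning 51.3%, 74.1%, 39.3% and, in NKT cells, 16.05%. Without thinning 18 CD8 pairs were past the fold, and with TCR cells only 8 Tconv pairs. A single draw gave 0.96 for Entpd1 with Pvrig in Treg cells. Leaving out CD8 cells with a Cd4 or Foxp3 UMI moved 5 of 69 values and turned 0. Averaging CPM over cells moved 27 of 84 values and turned 0.

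The following subsets were chosen after seeing the data. Tconv cells without Il2ra or Ikzf2 had 12.4% with at least 2 receptors, 4 pairs past the fold, ratios of CD8 to Tconv of 1.24 for Tigit and 1.03 for Ctla4, and an NKT to Tconv ratio of 1.33 for Entpd1. CD8 cells with Gzmb had 33.7% and 2 pairs. By Il1rl1, 3 receptors were past the fold in place of 1 without thinning, in a second draw, and in B16-tagged cells alone. There 4 cells had Il1rl1, and every receptor with a ratio, Btla included, was at 0 except Tigit at 0.27 (0.0068 to 1.52).

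Between tumor tags, 1 receptor was past the fold in CD8, 1 in Treg and 2 in Tconv cells. The tags numbered 1 alone gave 1 in Tconv cells, those numbered 2 gave 2, 2 and 1 in this order, leaving out cells with at least 2 beta chains gave 2 in Treg and 0 in Tconv cells, and no upper limit on genes gave 4 in CD8 and 2 in Treg cells. The tags numbered 1 gave 0.75 for Cd96 in CD8, 1.86 for Pdcd1 in Treg and 0 for Ctla4 in Tconv cells, and no upper limit gave 1.52 for Pvrig in CD8 cells. Between clones, clones by the beta chain gave 0 receptors in place of 1 in Treg and 2 in place of 5 in Tconv cells, with Cd96 at 0.82 in Treg and Btla at 1.07 in Tconv cells. Expanded clones of at least 3 cells gave 2 in Treg cells, with Cd96 at 0.97, and leaving out cells with at least 2 beta chains gave 2. The causes were not tested.

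No paired analysis was possible because the 2 samples are the gene expression and hashtag libraries of 1 pool, with no replicates. Values over few UMIs, in NKT cells, tagged cells and CD4+ clones, are limited by depth.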
